A study of Rattus norvegicus with 325 samples.

Results

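The gastrocnemius, the large ankle-extending calf muscle, was compared between 27-month and 6-month male Sprague Dawley rats by RNA sequencing. The members were chosen from the sample labels alone, as every library named for this muscle and for either age, which gave 11 libraries at 27 months and 10 at 6 months, 21 of the 73 libraries of this muscle. No animal carried a transgene or received a treatment. The rats were bought from Envigo as weanlings, aged there under specific pathogen free conditions, and moved to New York Medical College 8 to 12 weeks before they were killed. Each library came from a different animal of its age group. All tissues of an age group were taken on 1 day, between 9am and 1pm, so in every value given here the effect of age and that of the collection day cannot be told apart. The 52 gastrocnemius libraries of ages in between (9 to 24 months) entered the same fit.

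The gastrocnemius of the rat is built mostly of fast fibres that live on glycogen and glycolysis, with a deep oxidative region that holds slow fibres. Each fibre is driven by a motor axon at a single neuromuscular junction, where acetylcholine receptors are packed under the nerve ending. In an innervated adult fibre, electrical activity keeps the fetal receptor subunit and other embryonic genes silent outside the junction, and loss of the nerve lets them return. Old muscle is also known for lower mitochondrial gene expression and for infiltrating immune and fat cells. In tissue RNA, fewer cells of a type and less RNA per cell cannot be told apart.

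Total counts per library ran from 20.5 M to 62.8 M at 27 months and from 26.1 M to 85.3 M at 6 months, and did not separate the ages (permutation test of 100000 resamples, adjusted p = 0.628). The 10 most abundant genes took 28.4% ± 2.05 (SD, n = 10) of counts at 6 months and 22.0% ± 2.24 (SD, n = 11) at 27 months (adjusted p = 0.00016, two-sided permutation test). Skeletal muscle markers were abundant in every library, with Ckm, muscle creatine kinase, at no less than 6968 CPM (reads of a gene per M reads, scaled). A few libraries stood apart. Replicate 1 at 27 months held liver transcripts, with Alb at 107.8 CPM against at most 1.04 in the other 27-month libraries, and replicate 5 held skin keratins, with Krt1 at 109.3 CPM against at most 0.313. Replicates 4 and 9 at 6 months lay apart from the other young libraries on the leading axis of within-age variation. They had low counts of Xirp2, Cep290 and Hmgn5 among others. The counts of all genes, and those of lists and genes where stated, are given with and without them. Some other list counts also shifted without them.

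At 27 months, 1787 of 11865 genes tested were higher than at 6 months and 921 were lower, which is 15.1% and 7.76%, or 22.8% in either direction. A gene counted as called, and is said here to have risen or fallen, at a Benjamini-Hochberg adjusted p under 0.05 in limma-voom and a change over 1.5-fold. Rises were also larger than falls, with 204 calls past 4-fold among the higher genes and 26 among the lower ones. Without the 6-month replicates 4 and 9 the counts were 1641 higher and 925 lower. They were 1871 and 1027 without the 27-month replicate 1, and 1795 and 978 without replicate 5. The direction of weak changes depended on scaling. Trimmed-mean (TMM) factors, which correct for a few abundant genes, lay between 0.845 and 0.957 at 6 months and between 0.979 and 1.27 at 27 months. With libraries scaled by total counts alone, the median log2 change of all genes went from 0.04 to 0.32, the calls became 3268 higher and 364 lower, and the share of calls that were higher went from 66.0% to 90.0%. Changes below are log2 differences, 27 minus 6 months, with their standard errors. Each count of list members called is to be read against the 15.1% higher and 7.76% lower of all genes. With total counts these shares were 27.5% and 3.07%.

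**Figure D1:**
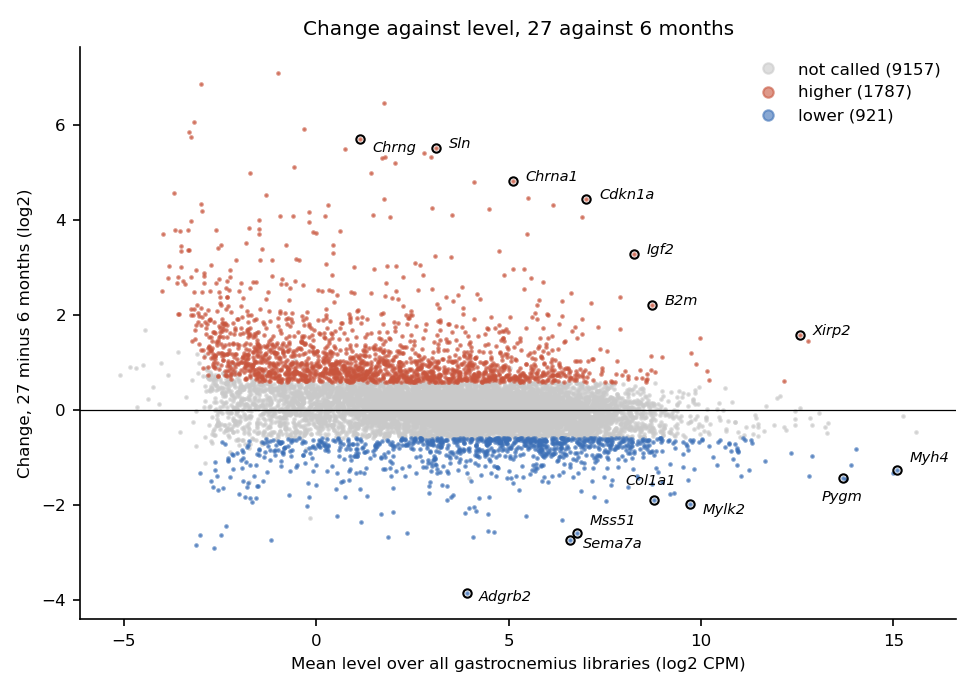
Log2 change from 6 to 27 months (vertical axis) against the mean level in log2 CPM over all gastrocnemius libraries (horizontal axis), 1 point per gene tested. Red points are the 1787 genes called higher, blue points the 921 called lower and grey points the rest. Circled genes are named in the text, and the abundant muscle genes Myh4 and Pygm lie below the zero line while Xirp2 lies above it.

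All 5 muscle acetylcholine receptor subunits rose, and in each of the 5 the groups did not overlap. Of all genes tested, 15.1% were called higher and 6.88% were higher without overlap. Chrng, the fetal gamma subunit that adult fibres replace, ran from -4.32 to 0.69 log2 CPM at 6 months with a median of -1.35, and from 2.65 to 5.06 with a median of 4.24 at 27 months. The young libraries were close to the limit of detection, with 170 counts in all 10 together, and every old library was well above them (change 5.71 ± 0.60, adjusted p = 5.29e-13, limma-voom). Chrna1, the alpha subunit that binds acetylcholine, ran from 2.65 to 4.10 (median 3.01) at 6 months and from 6.29 to 8.87 (median 8.14) at 27 months. It rose 28.2-fold, by 4.82 ± 0.29. Chrnd, the delta subunit, ran from 2.96 to 3.57 (median 3.19) in young and from 5.70 to 7.02 (median 6.6) in old libraries. It rose 10.1-fold (adjusted p = 1.06e-24) and was among the 10 genes with the smallest p. The adult epsilon subunit Chrne rose less, by 1.02 ± 0.13, from a median of 3.26 to 4.23. The beta subunit Chrnb1, named after its value was seen, rose by 0.62 ± 0.07.

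The 130 bases before the first base of each receptor gene are shown because E-boxes, the CANNTG letters bound by the myogenic factors described next, are the textbook link between activity and these promoters. Sequences are from RefSeq in the GRCr8 rat build, which is later than the build behind the counts, are written 5′ to 3′ on the strand of the gene, and have each CANNTG match (a motif that reads alike on both strands) in capitals. Chrna1 lies at chr3:78877354-78877483 (minus strand), Chrnb1 at chr10:55015108-55015237 (minus), Chrnd at chr9:95310186-95310315 (plus), Chrne at chr10:55834155-55834284 (minus) and Chrng at chr9:95325854-95325983 (plus).
Chrna1: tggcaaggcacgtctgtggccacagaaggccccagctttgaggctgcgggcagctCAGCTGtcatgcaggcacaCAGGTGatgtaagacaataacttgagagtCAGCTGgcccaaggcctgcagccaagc
Chrnb1: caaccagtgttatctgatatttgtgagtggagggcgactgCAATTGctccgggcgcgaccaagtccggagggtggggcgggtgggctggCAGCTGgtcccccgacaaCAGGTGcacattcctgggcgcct
Chrnd: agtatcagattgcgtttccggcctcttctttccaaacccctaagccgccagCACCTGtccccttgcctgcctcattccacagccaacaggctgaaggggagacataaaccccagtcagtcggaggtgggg
Chrne: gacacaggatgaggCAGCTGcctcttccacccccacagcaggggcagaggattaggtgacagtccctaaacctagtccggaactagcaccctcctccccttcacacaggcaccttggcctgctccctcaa
Chrng: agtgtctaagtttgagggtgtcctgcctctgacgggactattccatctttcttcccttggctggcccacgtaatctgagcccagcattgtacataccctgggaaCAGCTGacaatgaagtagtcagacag
Each of the 5 windows held at least 1 CANNTG, as did 41.8% of 33469 rat promoters over the same length. Chrna1 and Chrnb1 held 3, which 2.31% of promoters did. The form CAGCTG lay in the windows of Chrna1, Chrnb1, Chrne and Chrng, against 6.71% of promoters. The letters CCGGAA, read on both strands and known as the core of the N-box that ETS factors bind at synaptic genes, lay in the windows of Chrnd and Chrne, against 9.0% of promoters. A match of letters is a description and does not show a bound site.

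**Figure D2:**
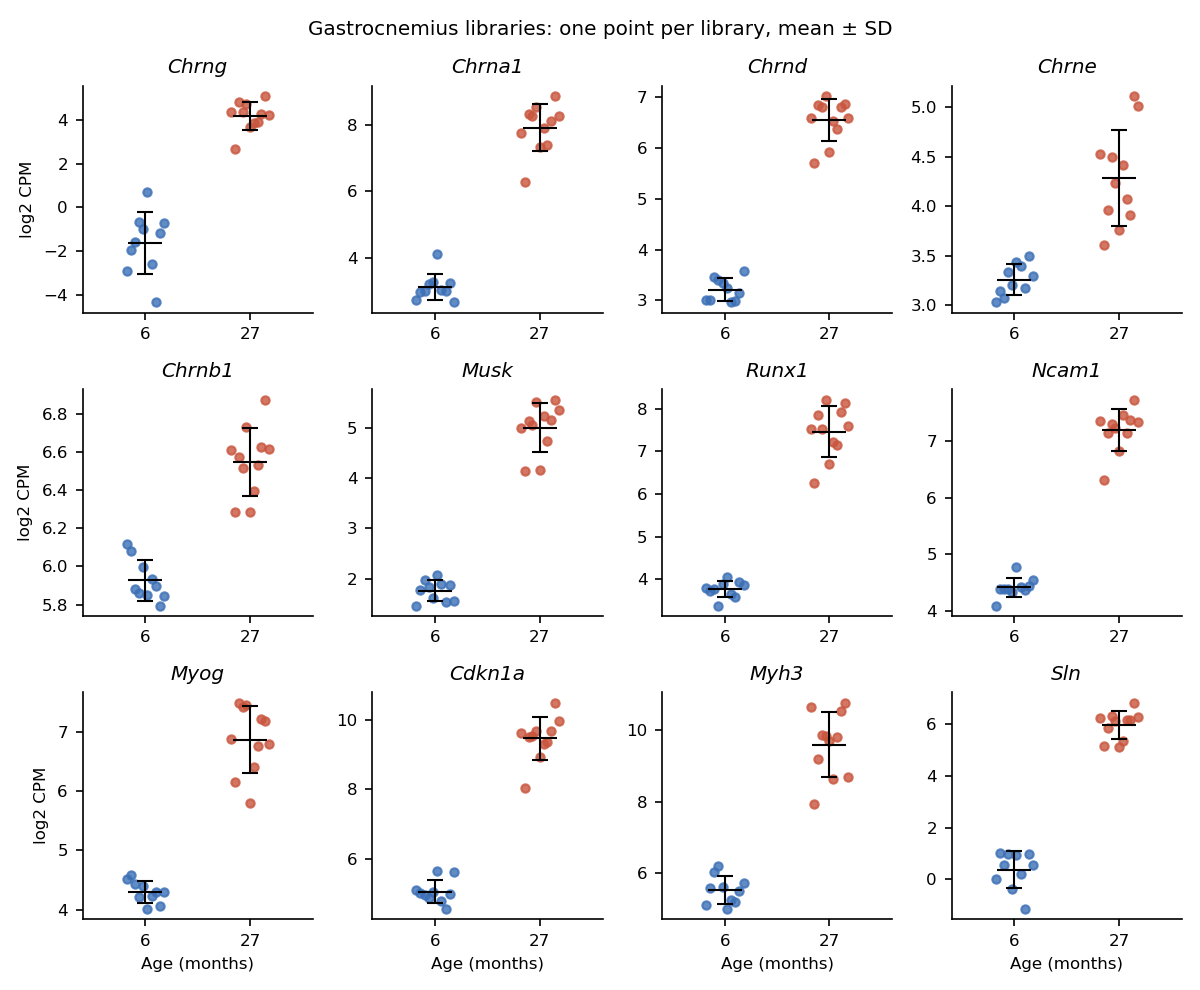
Levels in log2 CPM of 12 genes of the junction, the denervation response and the embryonic programme in each gastrocnemius library at 6 months (blue, 10 libraries) and 27 months (red, 11 libraries), with the mean and SD in black. In all 12 panels the lowest old library lies above the highest young one.

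Among 16 genes that organise the synapse, 4 rose and 3 fell, so the receptor rise did not extend to the whole list. Musk, the receptor kinase that clusters acetylcholine receptors, ran from 1.46 to 2.07 (median 1.80) at 6 months and from 4.14 to 5.57 (median 5.14) at 27 months, with no overlap (change 3.25 ± 0.22, adjusted p = 2.51e-20). Its co-receptor Lrp4, which binds agrin, rose by 0.67 ± 0.07, and the neuregulin receptor Erbb2 by 3.05 ± 0.25. Sntb1, a syntrophin of the dystrophin complex, fell by 1.39 on the log2 scale, and Etv4, an ETS transcription factor, fell by 0.98 (call kept with total-count scaling).

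Of 16 genes known to respond to loss of the nerve, 11 rose and 1 fell, and the median change was 1.85. Gadd45a, a stress-induced nuclear protein tied to denervation atrophy, ran from 1.94 to 3.40 in young and from 5.98 to 7.97 in old libraries (change 4.23 ± 0.27). Runx1, a transcription factor induced in denervated fibres, rose 13-fold, and its lowest old library (6.26) lay above the highest young one (4.05). Ankrd1, a sarcomeric ankyrin repeat protein, rose by 4.31 ± 0.28, and Ncam1, the adhesion molecule that spreads over denervated fibres, by 2.78 ± 0.16, both without overlap. Kcnn3, the SK3 channel behind the after-hyperpolarisation of immature and denervated fibres, rose by 2.20 ± 0.13 and was also among the 10 smallest p values.

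Myogenic regulators rose with these genes, while satellite cell genes mostly did not. Of 12 regulators tested, 7 rose and 1 fell. Myog, myogenin, which activates receptor genes through E-boxes, ran from 4.01 to 4.58 (median 4.30) at 6 months and from 5.79 to 7.49 (median 6.88) at 27 months (change 2.56 ± 0.18). Myf5 rose by 2.35 ± 0.19 and Myod1 by 1.45 ± 0.18, all without overlap, and the inhibitor of these factors Id2 rose by 1.27 ± 0.15. Of 15 satellite cell genes, 1 rose (Vcam1, 0.79 ± 0.16) and 1 fell (Hey1, a Notch target, -0.86 ± 0.19; the call of Hey1 was lost with total-count scaling). Pax7, which defines satellite cells, stood at medians of 1.56 and 1.88 with overlapping groups (change 0.17 ± 0.11, adjusted p = 0.187).

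Embryonic sarcomere isoforms rose in 4 of 9 cases tested. Myh3, embryonic myosin heavy chain, ran from 5.00 to 6.20 (median 5.55) in young and from 7.92 to 10.77 (median 9.81) in old libraries, a rise of 16.8-fold. Tnnt2, the cardiac and embryonic troponin T, rose by 2.97 ± 0.35, Myl4, the embryonic light chain, by 2.51 ± 0.36, and Actc1, cardiac actin, by 2.03 ± 0.23. Myh8, the perinatal heavy chain, overlapped between ages, with a change of -0.05 ± 0.11 that became 0.23 with total-count scaling.

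Genes of fast fibres fell and most genes of slow fibres were not called. Of all genes tested, 7.29% were lower without overlap between the ages. Of 15 fast fibre genes, 9 fell and none rose, and 8 fell with total-count scaling, against 7.76% and 3.07% of all genes. Myh4, the heavy chain of the fastest fibres and the only adult myosin heavy chain called, ran from 15.30 to 15.91 (median 15.54) at 6 months and from 13.17 to 14.85 (median 14.55) at 27 months. Every old library lay below every young one, and the fall was 2.41-fold (adjusted p = 9.93e-09). Myh1, the next fastest isoform, differed by -0.13 ± 0.10 and by 0.15 with total-count scaling, and slow Myh7 by -0.32 ± 0.18. Mylk2, the kinase of the fast regulatory light chain, fell 3.93-fold, Actn3, the actinin of fast fibres, by 1.39 on the log2 scale, and Atp2a1, the fast calcium pump, by 1.32. Pvalb, the calcium buffer of the fastest fibres, was not called, at -0.16 ± 0.12 (total-count scaling 0.12).

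Of 15 slow fibre genes, 3 rose. Sln, sarcolipin, which inhibits the calcium pump, ran from -1.13 to 1.02 (median 0.55) in young and from 5.11 to 6.82 (median 6.15) in old libraries, a rise of 46.1-fold. Csrp3, a stretch-sensing protein of the Z disc, rose by 1.75 ± 0.22 and Casq2, the slow calsequestrin, by 1.04 ± 0.16. All 3 are also known from heart muscle. Slow troponin I, Tnni1, showed 0.01 ± 0.16, a value that changed sign with a library left out. Of 14 genes of calcium release and uptake, 2 fell: Cacna1s, the voltage sensor of excitation-contraction coupling (-0.90 ± 0.08), and Jph2, which holds the triad together (-0.91 ± 0.13).

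Ion channels of the fibre membrane moved both ways, with 4 of 16 higher and 6 lower. Kcnj11, the pore of the ATP-sensitive potassium channel, ran from 8.12 to 8.68 at 6 months and from 6.72 to 7.51 at 27 months and fell by 1.20. Scn4a, the adult muscle sodium channel, stood at medians of 9.75 and 9.23, a difference of -0.58 ± 0.07 that missed the fold threshold. Atp1b4, a muscle protein related to the sodium pump beta subunit, rose by 2.01 ± 0.23. Its lowest young libraries were replicates 4 and 9 (1.74 and 2.04, next 2.85). Over other settings and left-out libraries its smallest change was 1.57. In the dystrophin complex, 3 of 14 genes rose and 3 fell. The complex links the cytoskeleton of the fibre to its basement membrane. Dmd, dystrophin itself, rose by 1.55 ± 0.17 and Lama5, a laminin of the synaptic basal lamina, by 1.73 ± 0.15. For Dmd too, replicates 4 and 9 were the lowest young libraries (4.68 and 4.74, next 5.44), and its smallest change over those settings was 1.32. Cav3, the muscle caveolin, fell by 0.70 and lost its call with total-count scaling.

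The enzymes that burn glycogen and glucose fell together in this muscle. Of 25 glycolytic genes 15 fell and 1 rose, with a median change of -0.72 against 0.04 for all genes, and of 19 glycogen genes 9 fell and none rose. With total-count scaling, 10 and 4 fell, against 3.07% of all genes, while 7.76% of all genes fell with TMM scaling. Pfkm, the muscle phosphofructokinase, ran from 11.38 to 11.86 (median 11.49) at 6 months and from 9.30 to 10.996 (median 10.10) at 27 months. Aldoa, muscle aldolase, ran from 14.05 to 14.80 (median 14.30) and from 11.87 to 13.66 (median 12.78). In both the groups were apart, and the falls were 2.62-fold and 2.74-fold. Pfkfb3, which makes the activator of phosphofructokinase, fell by 2.32 and Gpd1, of the glycerol phosphate shuttle, by 1.78. Hk2, the insulin-regulated hexokinase, differed by -0.42 ± 0.08, short of the fold threshold. Pygm, the glycogen phosphorylase of muscle, ran from 13.93 to 14.55 (median 14.19) in young and from 11.83 to 13.47 (median 12.73) in old libraries, a fall of 2.69-fold without overlap. Its activating kinase fell in the Phkg1 (-1.42 ± 0.15) and Phka1 (-1.20 ± 0.12) subunits, and Ppp1r3c, which targets phosphatase to glycogen, by 1.75.

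Mitochondrial genes shifted down by less, and here the scaling decided the calls. The respiratory chain pumps protons through complexes I, III and IV, and ATP synthase uses the gradient. Of 33 complex I genes 13 fell, of 9 in complex III 3, of 11 in complex IV 3 and of 16 of ATP synthase 6. None of 4 genes of complex II was called by limma-voom, edgeR or DESeq2, although all 4 were lower at an unadjusted p under 0.05. All 4 were also lower at an adjusted p under 0.05 in limma-voom and missed only the fold threshold. With total-count scaling the falls numbered 1 in complex I and 0 in complexes III and IV and in ATP synthase. Of all genes tested, 7.76% fell with TMM scaling and 3.07% with total counts. That 1 fall in complex I was near the latter share. In complex I, 32 of 33 genes had a negative change with TMM scaling, and the median was -0.56 with TMM and -0.27 with total counts. Ndufs7, a core subunit and the complex I gene that stayed called, ran from 7.59 to 8.21 (median 7.77) at 6 months and from 6.28 to 7.61 (median 7.03) at 27 months, with slight overlap (change -0.89 ± 0.13). Ndufs1, another core subunit, differed by -0.33 ± 0.09, Uqcrc1 of complex III by -0.63 ± 0.11, Cox5a of complex IV by -0.74 ± 0.11 and Atp5b, the catalytic ATP synthase subunit, by -0.69 ± 0.09. Of these only the last 3 were called, and none was with total counts (-0.35, -0.46 and -0.41). Single libraries mattered too. Without the 27-month replicate 9 the falls were 8 in complex I and 0 in complex III, and without replicate 6 there was 1 in complex III. Over all libraries left out in turn they ran from 8 to 18 and from 0 to 4. Without the 6-month replicates 4 and 9 they were 10 in complex I and 1 in complex III, and complex II had 1. Atpif1, the inhibitor of ATP synthase, went the other way and rose by 0.93 ± 0.11 with TMM and by 1.21 with total counts.

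In the citric acid cycle 5 of 18 genes fell (none with total counts, 3 without the 27-month replicate 9), and Cs, citrate synthase, missed the fold threshold at -0.56 ± 0.07. Of 69 mitochondrial ribosomal protein genes 4 fell, and the median of -0.26 became 0.02 with total counts. Their share of falls, 5.80%, lay below the 7.76% of all genes. Fatty acid oxidation showed no fall among 27 genes and 2 rises, among them Decr1, which handles unsaturated fats (0.60 ± 0.07), with 1 rise without the 27-month replicate 3 or the 6-month replicate 6. Its median changed sign with the scaling, from -0.11 to 0.17. Among 14 regulators of mitochondrial biogenesis, 3 fell and 1 rose, against 2 and 0 without the 6-month replicates 4 and 9, and the count of rises changed in 10 of 21 cases of a library left out. Perm1, a muscle partner of the PGC1 and ERR factors, ran from 8.31 to 8.95 (median 8.85) in young and from 6.14 to 8.39 (median 7.27) in old libraries and fell by 1.39. Only the least changed old library overlapped the young range. Esrra, the ERR alpha receptor, fell by 0.79 (call lost with total counts), and Ppargc1a, PGC1 alpha, differed by -0.28 ± 0.12 and by 0.01 with total counts.

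**Figure D3:**
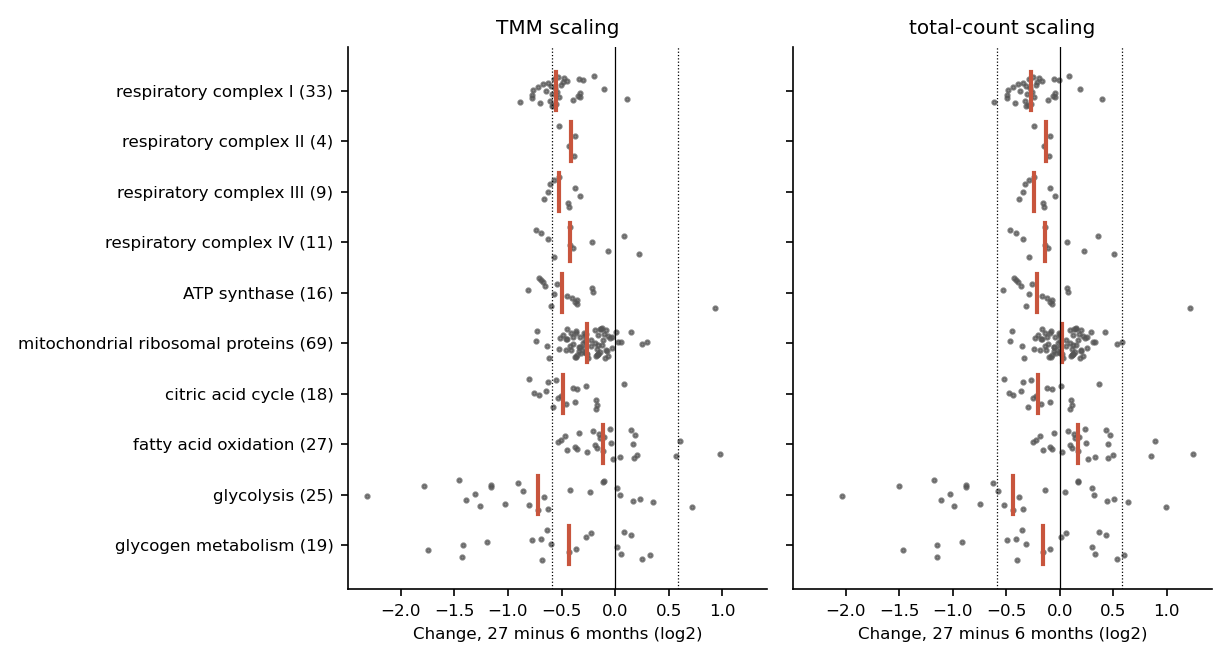
Log2 change from 6 to 27 months (horizontal axis) of each tested gene, as a grey point, in 10 lists of energy metabolism with the number of genes in brackets, with TMM scaling (left) and total-count scaling (right). Red bars are list medians and dotted lines mark 1.5-fold. The glycolysis median stays below 0 in both panels, while those of the mitochondrial ribosome and fatty acid oxidation cross it.

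Creatine, purine and polyamine enzymes changed in both directions, with 4 of 17 higher and 7 lower (5 lower without the 6-month replicates 4 and 9). Ampd3, the AMP deaminase that rises in atrophying fibres, ran from 4.19 to 4.86 (median 4.56) at 6 months and from 6.43 to 8.12 (median 7.01) at 27 months, a rise of 6.44-fold. Polyamine enzymes did not move one way. Sat1, which acetylates polyamines, rose by 2.34 ± 0.19 and Amd1, needed to make them, fell by 0.97, each without overlap. Sms, spermine synthase, named after its value was seen, rose by 0.68 ± 0.08, and Smox, spermine oxidase, fell by 1.18. Ckm fell by 0.83, a call that total-count scaling removed, and Gatm, which starts creatine synthesis, rose by 1.22 ± 0.15.

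Among 19 ubiquitin ligase and Foxo genes, 4 rose and 3 fell, and the classical atrophy ligases were not among them. Fbxo32, atrogin-1, overlapped between ages at medians of 7.50 and 7.65 (change 0.11 ± 0.11, adjusted p = 0.376, limma-voom). Trim63, MuRF1, changed by 0.49 ± 0.10 (adjusted p = 3.1e-05, limma-voom) and missed only the fold threshold. It was called with total counts (0.77). Fbxo30, the ligase MUSA1 that BMP signalling restrains, ran from 4.02 to 5.58 in young and from 6.35 to 8.05 in old libraries. It rose by 2.01 ± 0.20. Its lowest young libraries were replicates 4 and 9 (4.02 and 4.35, next 4.90). Over other settings and left-out libraries its smallest change was 1.78. Asb2, a ligase subunit that limits muscle mass, fell by 1.47 ± 0.11. None of 32 proteasome subunits was called by limma-voom, edgeR or DESeq2, 15 had an unadjusted p under 0.05, 12 had higher and 3 lower levels at an adjusted p under 0.05 with no fold threshold, and 7 were called higher with total counts. Psmd11, a lid subunit, stood at 0.34 ± 0.05. Of 24 autophagy genes, Ctsl, the lysosomal protease cathepsin L, rose (1.29 ± 0.13), and Pink1 (-0.73 ± 0.07), the mitophagy kinase, and Map1lc3a (-0.59 ± 0.13) fell. Total-count scaling removed both falls, and that of Map1lc3a, near 1.5-fold, was also lost in 7 of 21 cases of a library left out.

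Growth signalling changed in both directions, with 7 of 30 genes higher and 6 lower. Igf2, a fetal growth factor that regenerating muscle makes again, ran from 6.77 to 7.15 (median 7.0) at 6 months and from 9.50 to 11.14 (median 10.27) at 27 months, a rise of 9.82-fold (adjusted p = 6.61e-26). Igf1, the postnatal factor, overlapped between ages (0.25 ± 0.12, adjusted p = 0.068). Mstn, myostatin, the inhibitor of muscle growth, fell by 1.08 ± 0.20, and its antagonist Fst, follistatin, ran from 1.37 to 2.14 in young and from 3.27 to 5.22 in old libraries (change 2.52 ± 0.19). Cish, a target of growth hormone through Stat5, fell by 2.68 but varied widely, from 1.46 to 7.0 at 6 months and from 0.48 to 5.41 at 27 months, and the groups overlapped. The binding protein Igfbp2 rose by 2.68 ± 0.37 from 55 counts in all young libraries together.

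Cell cycle inhibitors, metallothioneins and some heat shock genes rose, and stress genes driven by Atf4 were mixed. Of 16 inhibitor and p53 target genes, 8 rose, 7 of them without overlap, and none fell. Cdkn1a, the p21 inhibitor, which is induced in denervated fibres as well as in arrested cells, ran from 4.55 to 5.63 (median 4.99) at 6 months and from 8.05 to 10.51 (median 9.54) at 27 months, a rise of 21.7-fold. Cdkn2a, a marker of senescent cells, rose by 4.19 ± 0.53, but from only 12 counts in the 10 young libraries to 320 in the 11 old ones, so the size of its change depends on the prior count. Cdkn2b, a related inhibitor, rose by 2.23 ± 0.20. The integrated stress response, in which Atf4 drives amino acid genes, had 4 of 19 genes higher and 3 lower. Atf4 itself ran from 8.11 to 8.41 in young and from 6.73 to 7.80 in old libraries and fell by 0.98, as did its target Chac1, a glutathione-degrading enzyme, by 2.20. Gdf15, a stress cytokine, rose by 2.13 ± 0.41 at low counts with overlapping groups. Of 18 heat shock genes 4 rose (22.2%, against 15.1% of all genes), and 2 were called with Bonferroni adjustment. They were led by Hspb8 (1.12 ± 0.09), whose co-chaperone Bag3 differed by 0.16 ± 0.07.

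Metallothioneins, small proteins that bind zinc and copper, rose with zinc transporters in 7 of 9 genes tested (6 without the 6-month replicates 4 and 9), and none fell. Mt1a ran from 0.81 to 2.12 (median 1.44) at 6 months and from 3.91 to 6.66 (median 5.91) at 27 months, a rise of 19.2-fold. Mt2A ran from 0.02 to 1.73 (median 1.00) and from 2.71 to 4.92 (median 4.07), and Slc30a2, a zinc exporter, rose by 2.43 ± 0.30. None of the 3 overlapped between ages. The 200 bases before each metallothionein gene are shown because they carry the letters TGCGCNC, a form of the metal response element that the zinc sensor MTF1 binds. Matches on either strand are in capitals here, and other forms of the element were not searched. Mt1a, named Mt1 in the reference, lies at chr19:10832976-10833175 (minus strand) and Mt2A at chr19:10838709-10838908 (minus) in GRCr8.
Mt1a: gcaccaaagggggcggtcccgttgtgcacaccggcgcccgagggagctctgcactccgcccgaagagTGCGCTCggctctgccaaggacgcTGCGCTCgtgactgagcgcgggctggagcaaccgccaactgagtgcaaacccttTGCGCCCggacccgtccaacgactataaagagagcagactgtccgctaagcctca
Mt2A: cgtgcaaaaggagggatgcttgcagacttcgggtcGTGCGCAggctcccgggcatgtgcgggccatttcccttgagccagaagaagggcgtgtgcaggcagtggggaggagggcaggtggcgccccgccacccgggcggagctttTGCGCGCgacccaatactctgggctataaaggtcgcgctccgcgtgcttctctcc
Mt1a held 3 matches and Mt2A 2, against 0.439% of promoters with at least 3 and 2.28% with at least 2 over that length. Of 21 antioxidant genes 7 rose (5 without replicates 4 and 9) and none fell. Hmox1, heme oxygenase, ran from 1.21 to 2.48 in young and from 3.39 to 5.08 in old libraries (change 2.56 ± 0.22), and Gsta1, a glutathione transferase, rose by 1.99 ± 0.12. Of 58 cytosolic ribosomal protein genes 2 rose, Rpl3 by 1.32 ± 0.09 and Rps12 by 0.59 ± 0.10, the latter at the threshold and lost without those replicates and in 9 of 21 cases of a library left out. Reads of such genes can be shared with processed copies, so single values are uncertain.

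Members of every immune pathway examined rose. The share of tested members called higher was 75% for complement (15 of 20), 61.9% for chemokines and their receptors (13 of 21), 55.6% for MHC class II (5 of 9), 52.9% for MHC class I processing (9 of 17) and 40.7% for interferon-stimulated genes (11 of 27), against 15.1% of all genes, and none of these 5 lists had a member that fell. B2m, the invariant chain of class I molecules, ran from 7.52 to 8.17 (median 7.78) at 6 months and from 9.28 to 10.40 (median 9.97) at 27 months, a rise of 4.62-fold (adjusted p = 6.61e-26). Tap1, the peptide transporter, rose by 1.03 ± 0.13, and the class I genes RT1-CE5 and RT1-A1 each by 1.80, although near-identical class I copies can share reads. Cd74, the class II chaperone, rose by 0.82 ± 0.12 with overlapping groups. In complement, C4a rose by 1.66 ± 0.18, C3, on which all routes converge, by 1.69 ± 0.32, and C1qa, made by macrophages, by 0.94 ± 0.13. Cxcl9, a T cell attractant, ran from -0.08 to 1.09 in young and from 1.68 to 2.85 in old libraries (change 1.6 ± 0.16). The monocyte attractant Ccl2 rose by 1.5 ± 0.27 with overlap. Without the 6-month replicates 4 and 9, 16 chemokine and receptor genes rose and 1 fell. Of 26 chemokine and receptor genes listed, 21 passed the filter on low counts. Genes near 0 at 6 months could pass it only through ages where they were higher, which can raise the share that rose. Among interferon-stimulated genes no member separated the groups, Mx1 rose by 0.99 ± 0.23, Irf7 missed the fold threshold at 0.48 ± 0.20, and the count of rises was 17 without the 6-month replicates 4 and 9 and 21 with total counts. In the interleukin 6 and NF-kappaB list 6 of 19 rose and 1 fell. Nfkb2 rose by 0.92 ± 0.10, and Stat3, at 0.58 ± 0.05, lay just short of 1.5-fold although its groups did not overlap.

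Markers of macrophages, T and NK cells, neutrophils and mast cells, and fat cells were mostly higher, and those of B and plasma cells were mixed. The summed level of 15 macrophage markers lay between 142.9 and 218.1 CPM at 6 months and between 260.5 and 484.0 CPM at 27 months, with Marco at 0, and 13 of 14 tested rose. Gpnmb, a lysosomal protein of phagocytes, rose by 2.85 ± 0.28, and the resident macrophage receptors Cd163 and Mrc1 by 1.09 ± 0.14 and 1.12 ± 0.13, all 3 without overlap. Of 8 T and NK cell markers tested, 7 rose at low levels, among them Cd2 (1.64 ± 0.28) and perforin, Prf1 (1.25 ± 0.25), and the summed CPM of the 16 listed in the files was 9.26 to 13.8 in young and 15.5 to 24.0 in old libraries. Summed levels at 6 and 27 months of 10 B and plasma cell markers were 81.1 to 110.9 and 65.8 to 88.2 CPM, and 1 of 3 tested rose. Neutrophil and mast cell markers rose in 6 of 7 cases tested, with sums over 12 markers of 10.4 to 14.7 CPM in young and 15.7 to 23.7 CPM in old libraries. Only 7 of those 12, and 8 of the 16 T and NK cell markers, passed the filter on low counts. A marker near 0 at 6 months could pass only through ages where it was higher. The shares of tested markers that rose can therefore be raised by the filter. Adipocyte markers rose in 7 of 11 cases, with sums over 12 markers of 599.5 to 910.3 CPM in young and 1124 to 2073 CPM in old libraries. Adipoq, the fat cell hormone adiponectin, rose by 1.44 ± 0.23 and Plin1, which coats lipid droplets, by 1.13 ± 0.25, both with overlap. The part of these cells in the immune and lipid gene changes was not tested.

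Endothelial, nerve sheath, tendon and fibroblast lists showed their own patterns. Of 18 endothelial genes, 3 fell, 2 with total-count scaling, and 17 had a negative change with TMM scaling, and their summed CPM was 970.6 to 1271 in young and 584.2 to 1055 in old libraries. Kdr, the main VEGF receptor, ran from 6.32 to 6.83 (median 6.65) at 6 months and from 5.06 to 6.11 (median 5.54) at 27 months and fell 2.08-fold. The pan-endothelial genes Pecam1 and Cdh5 were short of the fold threshold at -0.39 ± 0.08 and -0.47 ± 0.07, and differed by -0.11 and -0.19 with total counts. Among Schwann cell genes 3 rose and 3 fell of 10. Cnp, a myelin enzyme that other cells also express, rose by 1.65 ± 0.14. Of 9 tendon markers 4 fell and 1 rose, and their summed CPM overlapped between ages. Chad, a cartilage and tendon matrix protein, was among those that fell (-1.22 ± 0.16). Of 10 fibro-adipogenic progenitor markers 2 rose, Apod (1.58 ± 0.16) and Pi16 (0.71 ± 0.14), whereas their defining receptor Pdgfra showed 0.19 ± 0.07. Of 5 red blood cell genes 0 were called by limma-voom, edgeR or DESeq2, and 0 had an unadjusted p under 0.05.

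Collagen I fell while parts of the matrix rose. Of 18 collagens 2 rose and 3 fell. Col1a1 ran from 9.76 to 10.81 (median 10.08) at 6 months and from 7.51 to 9.49 (median 8.22) at 27 months. Every old library lay below every young one (fall of 3.71-fold), and Col1a2, the other chain of the same fibril, fell by 1.56 ± 0.16. Col3a1 overlapped between ages, at -0.12 ± 0.13 with TMM and 0.16 with total counts. Col23a1 and Col8a1, minor collagens, rose by 1.88 ± 0.25 and 1.20 ± 0.15. Plod2, the lysyl hydroxylase behind stable crosslinks, rose by 1.67 ± 0.14, Timp1, an inhibitor of matrix proteases, by 1.09 ± 0.18, and Postn, periostin, by 1.51 ± 0.20, each without overlap. In all, 6 of 26 matrix enzymes (23.1%) and 8 of 25 matrix glycoproteins (32%) rose, and 4 (15.4%) and 2 (8%) fell. Of the collagens 11.1% rose and 16.7% fell, against 15.1% and 7.76% of all genes tested. The share of collagens that rose and that of glycoproteins that fell were thus not above or only near those of all genes.

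Clock genes changed in both directions. The clock is a feedback loop in which Arntl (BMAL1) and its partners drive genes with CACGTG E-boxes, among them their own repressors. Of 15 clock genes 4 rose and 4 fell. Arntl ran from 4.15 to 5.68 (median 5.11) at 6 months and from 2.49 to 3.47 (median 2.99) at 27 months, and its partner Npas2 from 3.41 to 4.87 and from 1.51 to 2.85. Both fell without overlap, 4.11-fold and by 1.90 ± 0.21. Dbp, an output gene, rose by 1.43 ± 0.26 and Nfil3, which acts against it, fell by 1.5 ± 0.21. Ciart, a repressor of the loop named after its value was seen, rose by 1.36 ± 0.42 but ran from -1.15 to 3.46 in young libraries alone. Each age was sampled over 4 hours of 1 day, so a shift in collection hour and a change with age cannot be told apart for these genes. The 130 bases before Ciart (chr2:186112247-186112376, minus strand, GRCr8) and Arntl (chr1:176766198-176766327, plus strand, named Bmal1 in the reference) are shown because they carry the letters of the loop's 2 arms, CACGTG in Ciart and AGGTCA, the core letters of nuclear receptor sites, in Arntl, both in capitals and searched on both strands.
Ciart: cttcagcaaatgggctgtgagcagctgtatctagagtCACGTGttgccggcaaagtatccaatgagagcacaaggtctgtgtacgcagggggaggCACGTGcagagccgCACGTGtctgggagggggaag
Arntl: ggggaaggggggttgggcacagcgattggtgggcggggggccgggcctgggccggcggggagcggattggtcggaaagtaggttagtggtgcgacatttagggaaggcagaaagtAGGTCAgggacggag
Ciart held 3 CACGTG matches, as did 0.0299% of promoters, and Arntl held 1 AGGTCA, against 7.63%.

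Several further lists changed in part. Of 11 iron genes 3 rose and 3 fell. Tfrc, the transferrin receptor that takes iron up, ran from 7.91 to 8.85 (median 8.57) in young and from 5.92 to 7.23 (median 6.48) in old libraries and fell by 1.92, while Ftl1, the ferritin light chain that stores iron, rose by 1.25 ± 0.09 and the exporter Slc40a1 by 1.22 ± 0.12, all without overlap. Hfe2, hemojuvelin, fell by 1.24. Of 27 axon guidance genes 5 rose and 5 fell, 18.5% each way, against 15.1% and 7.76% of all genes. Sema7a, a membrane-anchored semaphorin, ran from 7.55 to 8.21 (median 7.80) at 6 months and from 3.92 to 5.69 (median 4.99) at 27 months, a fall of 6.67-fold, and Sema3a, which repels motor axons, rose by 1.54 ± 0.24. Immediate early genes rose in 8 of 17 cases and fell in 1, with Myc at 2.14 ± 0.19 and Junb at 1.72 ± 0.18. Only 1 of the 17 did not overlap between ages. Of 11 glucocorticoid response genes 3 rose and 1 fell, Fkbp5, by 1.17 ± 0.16.

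Several of the largest rises were in genes outside the lists. Tmem158, a membrane protein, ran from -1.28 to 0.42 at 6 months and from 3.39 to 5.94 at 27 months. Emb, embigin, a partner of monocarboxylate transporters that promotes nerve sprouting at the junction, ran from -0.17 to 0.70 and from 3.74 to 6.20. Their changes were 5.34 ± 0.47 and 5.20 ± 0.48, and those of Slc51a, a steroid transporter subunit, Ctxn3, Ppp1r14c, a phosphatase inhibitor, Klk1c7, a kallikrein, and Faah, which degrades anandamide, were 5.49, 5.42, 5.32, 5.31 and 4.99, none with overlap. Most of these were near the limit of detection in young muscle. Map1a, a microtubule protein, and Bex1, a small adaptor of nerve and regenerating muscle, rose by 2.38 ± 0.13 and 2.59 ± 0.15 and were among the 10 smallest p values, as was Abca1, the cholesterol exporter (1.52 ± 0.09).

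The largest falls included Mss51, a mitochondrial protein of fast muscle, which ran from 7.59 to 8.05 (median 7.68) in young and from 4.26 to 6.43 (median 5.14) in old libraries, a fall of 6.08-fold. G0s2, the inhibitor of fat cell and muscle lipase, fell by 2.57 ± 0.28, Lmod1, a leiomodin, by 2.56 ± 0.23, and Unc5a, a netrin receptor, by 2.68 ± 0.29. The largest fall, that of Adgrb2, an adhesion receptor, was uneven. Adgrb2 ran from 5.41 to 6.92 at 6 months but from -0.95 to 5.26 at 27 months (change -3.86 ± 1.21, adjusted p = 0.00435).

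**Figure D4:**
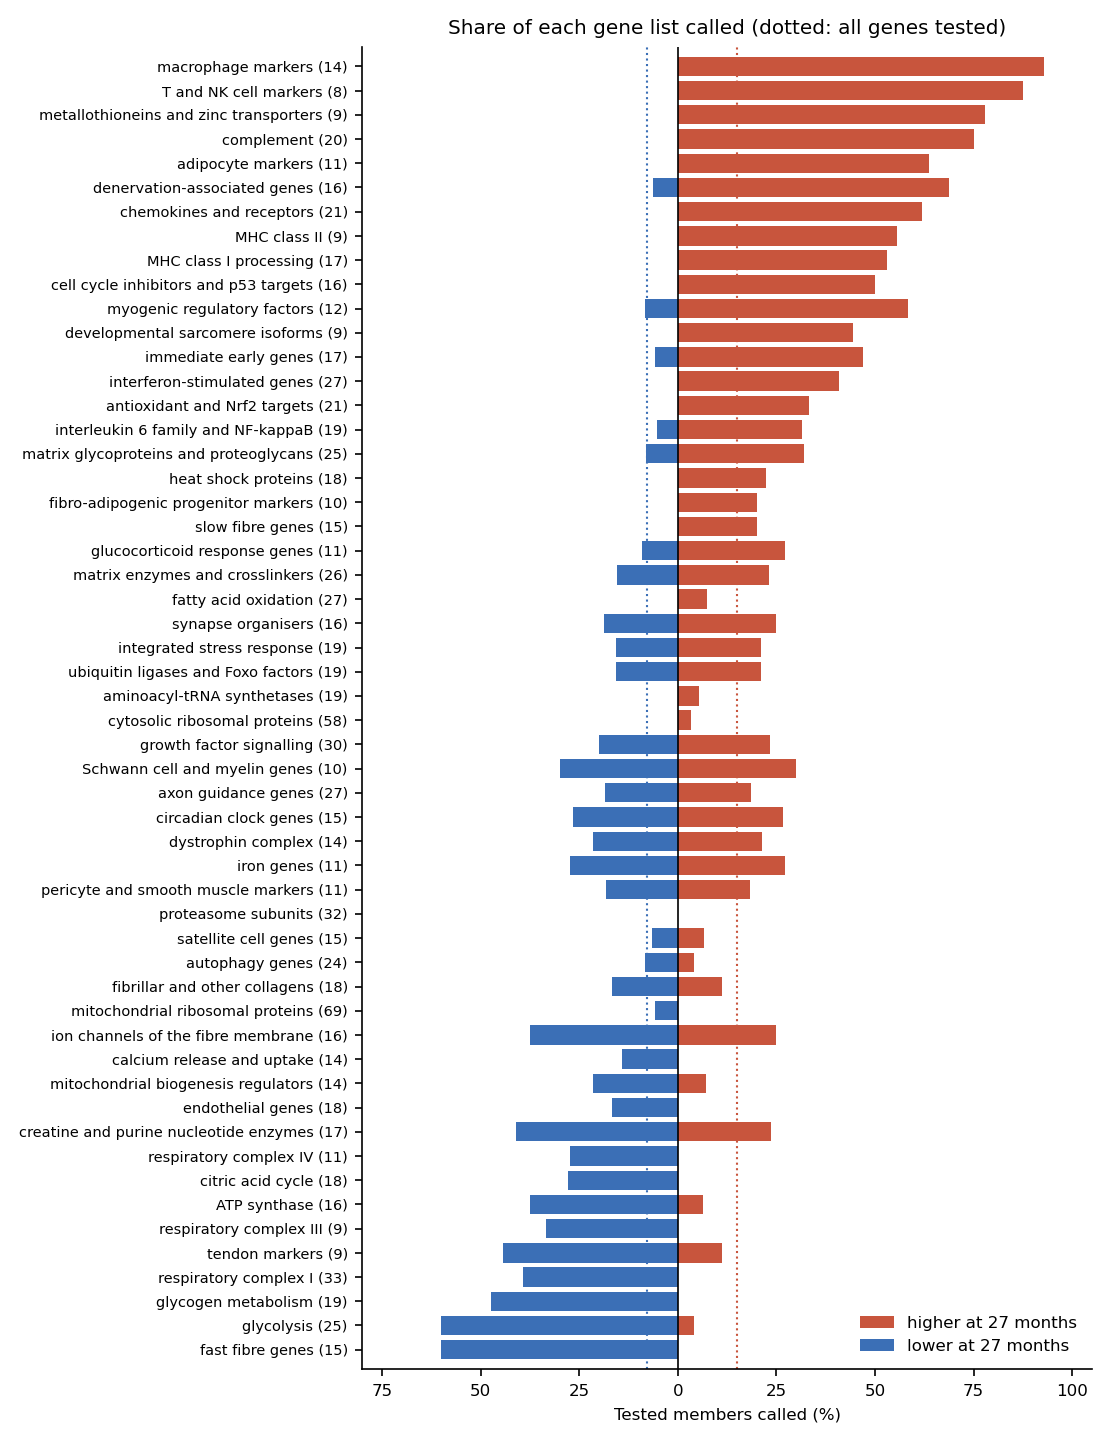
Percent of tested members called higher (red, to the right) or lower (blue, to the left) at 27 months for each gene list with at least 8 tested genes, with the number tested in brackets. Dotted lines show the share of all genes tested, 15.1% higher and 7.76% lower. Macrophage markers reach 92.9% higher, and fast fibre genes and glycolysis reach 60% lower.

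The 11 old animals differed in how far the denervation genes had moved. Chrnd ranged from 5.70 to 7.02 log2 CPM among them, and Runx1 followed it closely (Pearson r = 0.97, adjusted p = 4e-05; Spearman rho = 0.95, adjusted p = 0.00012, permutation test, n = 11). After the libraries farthest from the median of Chrnd, the 27-month replicates 1 and 5, were left out, r was 0.91. Myh4 was related inversely to Chrnd, with r = -0.53 (adjusted p = 0.106) and rho = -0.68 (adjusted p = 0.052, permutation test, n = 11), which did not pass. Ndufs1 had r = -0.63 (adjusted p = 0.0716, permutation test), which became -0.01 without replicates 1 and 5, and Cd74 had r = 0.50 (adjusted p = 0.106, permutation test), which became -0.11. These 2 relations rest on replicates 1 and 5, which also hold the liver and skin transcripts.

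The libraries of the ages between show how the end points were reached. All comparisons share the 6-month libraries, so the means are given as a description. Chrnd had means of 3.21, 3.38, 3.78, 4.71, 5.56, 6.61 and 6.55 log2 CPM at the 7 ages from 6 to 27 months. It climbed from 12 to 24 months and then levelled. Aldoa stood at 14.33, 14.10, 14.05, 13.98, 13.86, 13.16 and 12.88, with the largest step between 21 and 24 months. Ndufs7 also stepped down there, from 7.55 at 21 to 6.84 at 24 months. Col1a1 was lower already at 12 months (8.90, against 10.12 at 6 months) and changed little after 21 months (7.89). Arntl was lower at 9 months (4.32, against 5.04) and lowest at 27 (3.00).

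**Figure D5:**
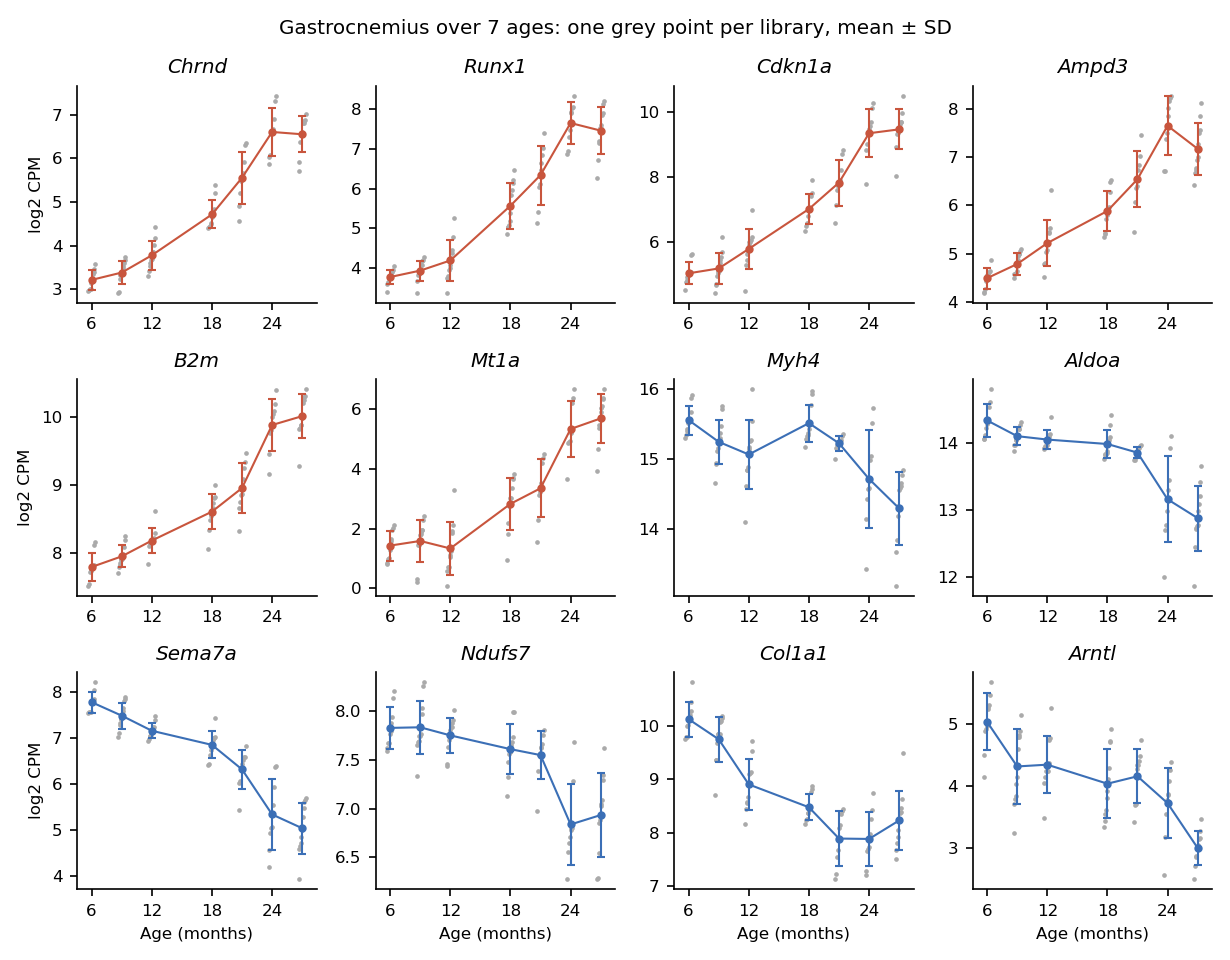
Levels in log2 CPM (vertical axes) of 12 genes in the gastrocnemius over 7 ages in months (horizontal axes). Grey points are single libraries and coloured points the mean with SD. Col1a1 is near its 27-month level by 21 months, while Aldoa and Ndufs7 show their largest step between 21 and 24 months.

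The change from 6 to 27 months was set against that of the tibialis anterior, another fast hindlimb muscle, and that of the slow soleus in 1 fit over all libraries. The change differed from the tibialis anterior in 936 of 12784 genes (7.32%), and in 529 without the 6-month gastrocnemius replicates 4 and 9, so a large part of this count rested on those libraries. It differed from the soleus in 1848 genes (14.5%), and in 1476 without them. Tissues of an age group were collected together, so libraries of different muscles can share animals, which the fit did not model, and its p-values treat them as independent. Replicate numbers start anew in each muscle and age group, and the sample titles do not say which libraries were processed together. Whether the muscles were processed apart is therefore not known. Against the tibialis anterior, 3 genes of the denervation response rose less in the gastrocnemius: the difference was -1.49 ± 0.31 for Chrnd (changes of 3.33 and 4.83), -1.41 ± 0.38 for Runx1 and -1.22 ± 0.28 for Myog, each called with and without replicates 4 and 9. These 3, and Col1a1 (-1.35 ± 0.28, changes of -1.90 and -0.55), were chosen for print with their values known. Xirp2, an actin-binding repair protein of the fibre, rose in the gastrocnemius and not in the tibialis anterior (changes of 1.58 and -0.48), a difference of 2.07 ± 0.31 that was 1.65 without those replicates. Against the soleus, fast fibre genes parted most. Myh4 changed by -1.28 in the gastrocnemius and 3.06 in the soleus, Actn3 by -1.39 and 3.53, and Pvalb by -0.17 and 6.08, so the difference in Myh4 was -4.34 ± 0.56 (adjusted p = 1.48e-11, limma-voom). Sln rose more in the gastrocnemius than in the soleus, by 3.38 ± 0.45. Ampd3 changed by 2.67 in the gastrocnemius and -0.02 in the soleus, a difference of 2.69 ± 0.25.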

How the data were processed

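The authors deposited 1 file of raw read counts per library, made with the ArrayStudio pipeline from strand-specific, ribosome-depleted RNA on an earlier rat build than GRCr8 with an in-house RefSeq-based gene model. Aligner and counter settings are not given in the sources used here. Counts of lines with the same symbol (494 of 17315 symbols) were summed. All 73 gastrocnemius libraries were fitted with limma-voom (limma 3.58.1, edgeR 4.0.16, R 4.3.3) after TMM scaling and a filter on a minimum count of 10 and total of 15, with the contrast 27 minus 6 months and p-values adjusted by Benjamini-Hochberg over 11865 genes. Levels are log2 CPM with a prior count of 0.5, so a library with 0 counts stands at -6.24. The contrast was set against other muscles in 1 fit of all libraries. The scripts were tested on simulated data. Some genes that met the rule for named genes below are not reported here.

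The 62 gene lists (1024 genes tested) and the members were chosen with earlier results of these data known. Genes were named by a rule: the anchor genes of each list, up to 4 called members of each list with the largest change, the 10 largest rises and falls above 0 log2 CPM, the 10 smallest p values, and the 5 largest differences from each muscle in each direction. Alternatives covered scaling, filtering, test (DESeq2 1.42.0), thresholds, covariates and left-out libraries. The share of counts on mitochondrially encoded genes was planned but not run, since none of the 13 such symbols was listed. No pair of libraries differed by as little as counting noise. Replicate numbers name no shared litter or day: the deviations of same-numbered libraries correlated between -0.224 and 0.407.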

Additional observations from a re-analysis of the deposited data

Results flagged for a closer look

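In some 6-month libraries, single values lay far from the rest of their group, by Dixon's test at the 95% level, which chance would pass in about 1 in 20 groups. Of 272 genes and 4 library measures tested, 13 and 2 passed it, about the share that chance gives for the genes, so they are listed as values only. The critical values used covered only groups smaller than the 11 old libraries, which were therefore not examined in this way. Chrna1 was high in replicate 5 (4.10 log2 CPM, next 3.27). Ankrd1 was low in replicate 4 (3.18, next 4.16). Replicate 0 was high for the immediate early genes Egr1 (7.19, next 5.60) and Junb (5.98, next 4.93) and for Ctsl (5.98, next 5.76). Replicate 3 was low for Cish (1.46, next 4.28) and for the mast cell genes Fcer1a (-4.62, next -2.34) and Ms4a2 (-1.95, next -1.02). Replicate 7 was low for Cd2 (-4.32, next -2.91). Low values were also seen for the complement gene C6 in replicate 8 (-1.02, next 0.28), Cxcl13 in replicate 6 (-6.24, next -3.27), P4ha3 in replicate 2 (-4.55, next -2.61) and Hmgn5 in replicate 9 (-6.24, next -0.29). Replicate 1 had the most counts (85.3 M, next 53 M) and the most genes detected (13298, next 12951). Whether these values reflect handling, sequencing or the animal was not tested.

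Changes that differed between muscles were tested by the interaction term. Against the tibialis anterior the difference in log2 change was -1.49 for Chrnd, -1.41 for Runx1, -1.22 for Myog, -1.35 for Col1a1, -2.28 for the bone morphogenetic protein Bmp3, -2.06 for Baiap2l1, -2.02 for Epn3, -1.97 for Cst7 and -1.87 for Dnah1. It was 1.70 for Smc4, 1.91 for Hmgn5, 2.07 for Xirp2 and 2.09 for Cep290. Without the 6-month replicates 4 and 9, the last 4 stood at 1.37, 0.94, 1.65 and 1.70, and that of Hmgn5 no longer passed (adjusted p = 0.0856, limma-voom). Against the soleus the difference was -6.25 for Pvalb, -4.92 for Actn3, -4.34 for Myh4, -3.76 for Cib2 and -3.34 for Myh1, and 2.69 for Ampd3, 2.70 for Pla2g7, 2.86 for Dclk1, 3.38 for Sln and 3.68 for Car12.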

How the results depend on the processing

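The counts of genes higher and lower at 27 months were 3268 and 364 with total-count scaling, 825 and 243 with a 2-fold threshold, and 3943 and 3430 with no fold threshold, and the higher count was 1098 with Bonferroni adjustment. The called list genes, 367 in all, numbered 186 and 749 under the 2-fold and no-fold thresholds. With each library left out in turn the counts ran from 1624 to 1871 higher, 804 to 1027 lower and 347 to 392 list genes. The difference from the tibialis anterior was called for 258 genes at 2-fold, 516 with Bonferroni adjustment and 529 without the 6-month replicates 4 and 9, an alternative chosen after seeing the data, and that from the soleus for 739 and 872 under the first 2. The relation of Chrnd with Ndufs1 and with Cd74 was -0.014 and -0.11 without the 2 farthest libraries. With total-count scaling the change turned positive in Myh8 (0.23), Myh1 (0.15), Pvalb (0.12), Cpt1b (0.14), Acadm (0.076), Ppargc1a (0.0053), Col3a1 (0.16), Lox (0.17) and Bmp3 (0.13), none of which was called. Tnni1 was -0.010 with no filter on low counts, -0.012 with the ribosomal RNA share as a covariate and -0.052 to 0.15 with a library left out. Myh8 was 0.025 without replicates 4 and 9, and -0.097 to 0.0012 with a library left out. Scaling moves all genes by construction, and the cause of the other shifts was not tested. With the replicate number as a block, 1765 genes were higher and 916 lower, and 1 of 10 young libraries correlated best with its own number. Weak changes near 1.5-fold and genes of few counts, such as Cdkn2a, are limited by depth and by the 21 animals.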
